A study of Homo sapiens with 6 samples.

Results

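Fatty acid binding and uptake proteins are the small set of carriers that bring long-chain fatty acids into a cell and hold them, or their CoA esters, in solution once inside. The genes described here are FABP1, FABP3, FABP4 and FABP5 (cytosolic fatty acid binding proteins), DBI (the acyl-CoA binding protein), CD36 (a membrane receptor that takes up fatty acids) and SLC27A1, SLC27A2, SLC27A3 and SLC27A4 (the fatty acid transport proteins FATP1 to FATP4). They were taken by gene name, and all 10 were found among the 58037 gene rows of the expression table. The cells were HepaRG, a human line from a hepatocellular carcinoma that differentiates in culture into hepatocyte-like and biliary-like cells. In 3 samples, differentiated cells received palmitate and oleate (1 part to 2 parts, 0.5 mM) on 0.02% bovine serum albumin for 72 h, and in 3 control samples they received 0.02% albumin without added fatty acid for 72 h. Before that, both groups had 14 days of growth, 14 days of differentiation and 5 days in basal medium. Insulin and hydrocortisone were in the basal medium of both groups, per the labels. All samples come from 1 cell line in culture, and nothing in the labels tells whether replicates were separate cultures. The p-values therefore reflect only how far these samples scatter, and that scatter may be technical.

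As background, unesterified fatty acids reach a cell bound to albumin, cross the plasma membrane with the help of CD36 and the SLC27 proteins, and are made water-compatible inside by binding proteins that fold into a lipid-holding barrel. FABP1 is the form made in quantity by hepatocytes, FABP3 is the form of heart and skeletal muscle, FABP4 is the form of adipocytes and macrophages, and FABP5 is the epidermal form. Several SLC27 proteins also join fatty acids to CoA, and DBI carries the resulting acyl-CoA esters. FABP1, FABP4 and CD36 are textbook targets of the PPAR receptors, which are activated by fatty acids and bind paired copies of a short DNA word, AGGTCA.

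The libraries held 8.36, 14.36 and 15.94 M counted reads (M, 1e6) in fatty acid replicates 1, 2 and 3, and 8.96, 6.33 and 11.82 M in control replicates 1, 2 and 3. Mitochondrially encoded genes took 9.147% to 11.91% of the reads in fatty acid libraries and 12.23% to 14.96% in control libraries. Correlations of log2 values between libraries ran from 0.9847 to 0.986 within the fatty acid group, from 0.9688 to 0.9785 within the control group, and from 0.9616 to 0.9801 between the groups. Hepatocyte character was present in both groups: ALB, which encodes albumin, averaged 7127 ± 306 FPKM in fatty acid libraries and 12025 ± 318 FPKM in control libraries (SD, n = 3 each). FPKM is fragments per kilobase of gene length per 1e6 counted fragments. Of the biliary markers, KRT19 averaged 316 ± 9.49 FPKM with fatty acid and 343 ± 36.6 FPKM in controls, and EPCAM was listed at 0 in all 6 libraries.

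Of the 10 genes, 9 reached the minimum for testing, a mean of 0.5 FPKM over the 6 libraries, and FABP5 did not. CD36 and FABP3 averaged 0.403 and 0.297 FPKM in controls, so they met the minimum only through the fatty acid libraries. With no expression filter CD36 was still called (limma adjusted p = 0.0301) and FABP3 was not (limma adjusted p = 0.342). FABP4 and CD36 were higher with fatty acid past the threshold (limma moderated linear model on log2(FPKM + 0.5), Benjamini-Hochberg adjusted p under 0.05 over 14661 tested genes), none of the 9 was lower past it, and 7 did not pass. Among all tested genes 12.9% passed the threshold, 8.22% as higher and 4.68% as lower. Of the 1891 calls, 1205 were higher and 686 lower, and this balance depends on the scaling: it was 778 and 818 with the median of ratios, 705 and 828 with reads of nuclear genes, 758 and 772 with quantile normalization, and 2231 and 377 with TPM. TPM also raised the values against the fixed minimum and pseudocount of 0.5, so 18218 genes were tested there. Without fatty acid replicate 1 or 2 the calls numbered 463 and 484, without fatty acid replicate 3 they numbered 913, and without control replicate 3 they numbered 1041. With no adjustment, SLC27A2 and SLC27A3 had a limma p under 0.05 and a negative fold change, and voom on recovered reads called 0 of the 9 lower. An unadjusted limma p under 0.05 was common: 4469 of the 14661 tested genes had one, in either direction. The median log2 fold change was 0.11 over the 9 genes and 0.04 over all tested genes. The fatty acid and control values did not overlap for 4 of the 9 genes (FABP4, CD36, SLC27A2 and SLC27A3), against 37.1% of all tested genes. The values of the 10 genes in the 6 libraries are drawn by gene.

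**Figure D1:**
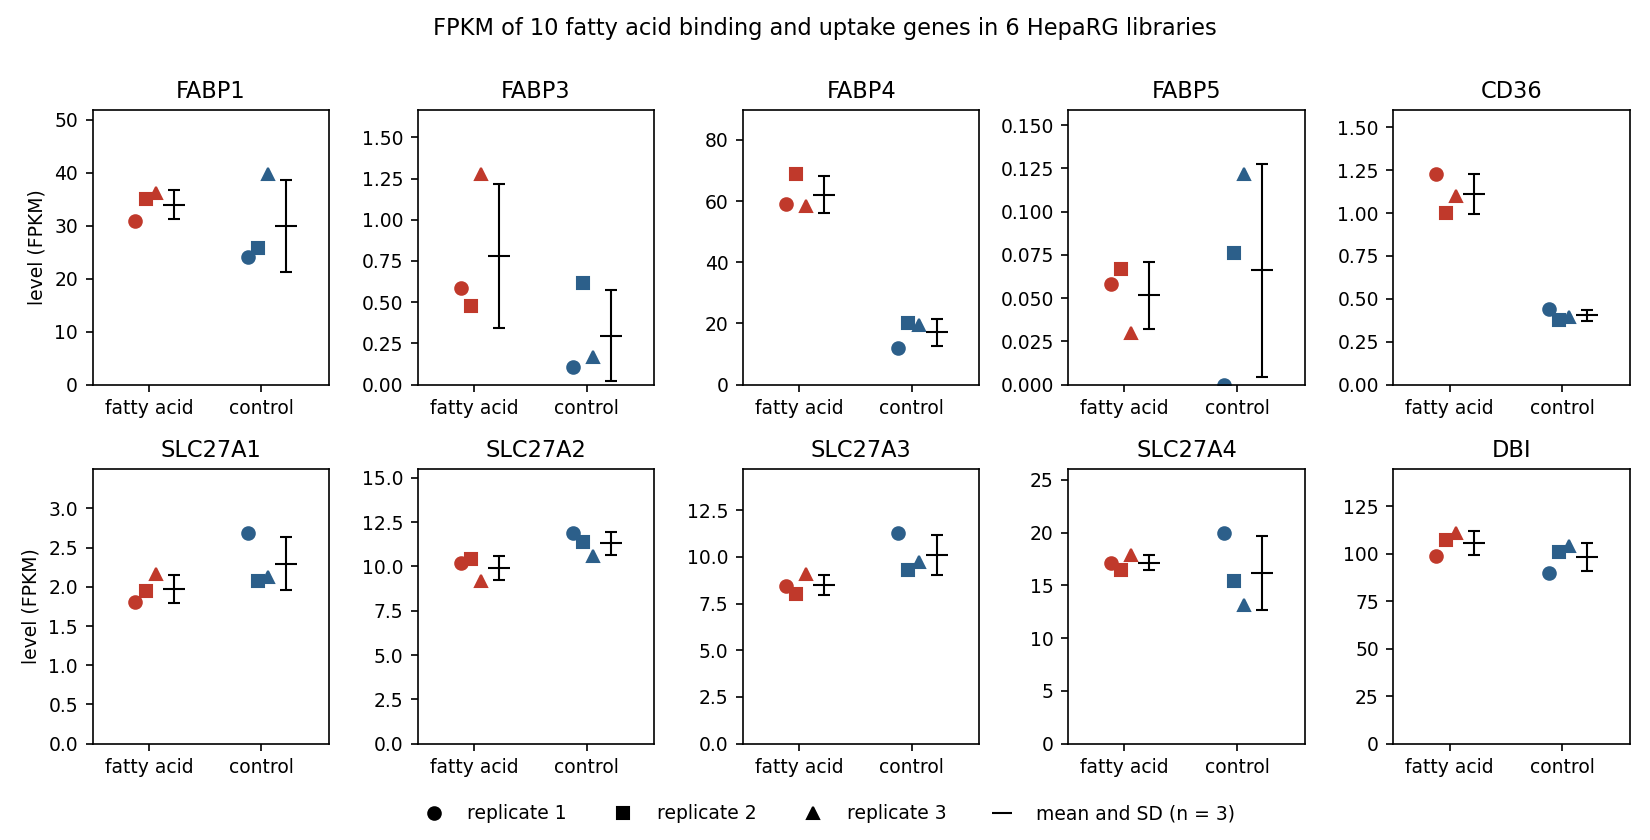
FPKM (vertical axes, linear, from 0, a scale for each gene) of the 10 genes in the 3 fatty acid libraries (red) and the 3 control libraries (blue), with replicate numbers as marker shapes and the mean and SD beside the points. FABP4 sits between 58.28 and 68.98 FPKM with fatty acid and between 11.99 and 20.03 FPKM in controls, and CD36 is separated as well at a level near 1 FPKM.

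The sequences before the start sites of FABP1 and CD36 are shown because both genes are textbook PPAR targets and the first did not pass the threshold while the second did. They come from RefSeq on GRCh38.p14 and cover the 250 bases upstream of the start site, FABP1 on the minus strand at chr2:88128063-88128312 and CD36 on the plus strand at chr7:80601957-80602206, both read 5′ to 3′ along the gene. Capitals mark AGGTCA, the PPAR half-site, or its reverse complement TGACCT.
FABP1: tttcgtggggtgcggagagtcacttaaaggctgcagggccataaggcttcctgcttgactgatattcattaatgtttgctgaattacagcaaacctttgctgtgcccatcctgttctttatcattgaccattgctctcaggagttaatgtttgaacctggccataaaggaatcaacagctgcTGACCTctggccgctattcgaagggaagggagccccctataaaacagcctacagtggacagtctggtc
CD36: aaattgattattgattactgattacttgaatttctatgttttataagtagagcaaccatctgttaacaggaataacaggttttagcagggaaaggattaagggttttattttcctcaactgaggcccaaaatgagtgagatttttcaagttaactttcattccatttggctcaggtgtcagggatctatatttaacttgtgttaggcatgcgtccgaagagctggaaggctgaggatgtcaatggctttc
RefSeq windows of 300 bases, 250 before and 50 after a start site, were held for 8 of the 10 genes, with 16 start sites in all, and the missing entries are those of FABP4 and FABP5. The search covered both strands. FABP1 was the only one of the 8 genes with AGGTCA in a window: one copy starts 68 bases upstream of the start site, and another 11 bases downstream of it. TATAAA, on the strand shown, starts 31 bases upstream of the FABP1 start site. None of the 6 CD36 start sites has AGGTCA in its window, and the one shown has only the reverse complement, TTTATA, starting 211 bases upstream. AGGTCA or its complement occurred in 13.8% of 35116 RefSeq promoter windows of this length and TATAAA or its complement in 11.5%. A direct repeat of the half-site with 1 base between the copies, which contains the half-site as part of itself, was found in none of the 16 windows and in 0.0228% of all promoters. Only exact copies were searched, so a paired site with other letters would be missed. At so low a share, absence of the exact repeat from 16 windows says little about these genes. The matches describe letters in a window and were not tested for binding.

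Among the cytosolic carriers, FABP4, the adipocyte and macrophage form (ENSG00000170323.8, GRCh38 chromosome 8, 81478419 to 81483263, minus strand, 4 exons in its principal transcript), rose in the fatty acid libraries. It had 59.09, 68.98 and 58.28 FPKM in fatty acid replicates 1, 2 and 3, and 11.99, 20.03 and 19.39 FPKM in control replicates 1, 2 and 3. Every fatty acid library lay above every control library, and control replicate 1 was the lowest of the 6. The means were 62.1 ± 5.95 FPKM with fatty acid and 17.1 ± 4.47 FPKM in controls (SD, n = 3 each), a 3.63-fold ratio of means. The fitted log2 fold change was 1.86 ± 0.18 (SE), with a 95% interval of 1.43 to 2.29, and the limma adjusted p was 0.00123. These levels rest on 690, 1383 and 1297 reads in fatty acid libraries and on 150, 177 and 320 reads in control libraries. The exact two-sided permutation test of the FPKM values gave p = 0.1, the smallest that 3 against 3 libraries allow.

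FABP1, the hepatocyte form (ENSG00000163586.9, chromosome 2, 88122982 to 88128116, minus strand), did not pass the threshold. Its level was 30.8, 35.0 and 36.1 FPKM in fatty acid replicates 1, 2 and 3, and 24.0, 25.8 and 39.8 FPKM in control replicates 1, 2 and 3. Control replicate 3 was the highest of the 6 libraries and the other two controls were the lowest, so the groups overlap. The means were 33.9 ± 2.79 FPKM with fatty acid and 29.9 ± 8.63 FPKM in controls (SD, n = 3 each). The log2 fold change was 0.22 ± 0.18 (SE, limma adjusted p = 0.444), and its 95% interval ran from 0.874-fold to 1.54-fold. Without control replicate 3 the log2 fold change of FABP1 was 0.44 and passed the threshold (limma adjusted p = 0.034), the only one of 17 alternative settings in which it did.

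FABP3, the muscle form (ENSG00000121769.7, chromosome 1, 31365625 to 31376850), was close to the testing minimum. It was listed at 0.583, 0.475 and 1.28 FPKM in fatty acid libraries, from 5, 7 and 21 reads, and at 0.109, 0.616 and 0.165 FPKM in control libraries, from 1, 4 and 2 reads. Fatty acid replicate 3 held most of the reads, and control replicate 2 lay above fatty acid replicates 1 and 2. The log2 fold change was 0.69 ± 0.32 (SE) with a 95% interval of -0.06 to 1.44, and the limma adjusted p was 0.196. Over all reads of each group, scaled to depth, the ratio of fatty acid to control was 3.31 with an exact 95% interval of 1.44 to 8.86, which covers counting error only and not the spread between libraries.

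FABP5, the epidermal form (ENSG00000164687.10, chromosome 8, 81280363 to 81284777, plus strand), was barely detected. It had 1, 2 and 1 reads in fatty acid libraries and 0, 1 and 3 reads in control libraries, a depth-scaled ratio of 0.701 with a 95% counting interval of 0.131 to 3.77. A difference smaller than this interval was not detectable at this depth. The FABP5 mRNA is also the one of the 10 with many near-copies: 79.4% of its 851 bases matched other annotated transcripts at 90% identity or more over at least 100 bases. Those matches lie in 9 other genes, 7 of which are named FABP5 pseudogenes, and the closest, FABP5P3, was 96.0% identical over 676 bases. The highest of the 7 near-copies present in the expression table reached 0.308 FPKM in a library. No source used here says how reads that fit several genes were counted, so the FABP5 level is uncertain. FABP4 had no such near-copy in the annotation, although both genes lie in one cluster on chromosome 8, with 193642 bases between them. The cluster genes PMP2 (the myelin form) and FABP9 (a testis form), which lie between them, and FABP12 on the far side of FABP4 were listed at 0 in all 6 libraries.

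DBI, the acyl-CoA binding protein (ENSG00000155368.16, chromosome 2, 119366921 to 119372560), had the highest level of the 10 genes in both groups. Its level was 98.7, 107 and 111 FPKM in fatty acid replicates 1, 2 and 3, and 89.7, 101 and 104 FPKM in control replicates 1, 2 and 3. The groups overlap, and in each of them replicate 1 is the lowest. With means of 106 ± 6.11 FPKM with fatty acid and 98.3 ± 7.49 FPKM in controls (SD, n = 3 each), the log2 fold change was 0.10 ± 0.07 (SE, limma adjusted p = 0.364). Its 95% interval, 0.957-fold to 1.21-fold, rests on 1610 to 4421 reads in each library.

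Among the membrane proteins, CD36, a scavenger receptor that binds long-chain fatty acids at the cell surface (ENSG00000135218.17, chromosome 7, 80369575 to 80679277, plus strand), rose in the fatty acid libraries at a low level. It had 1.23, 1.00 and 1.10 FPKM in fatty acid replicates 1, 2 and 3, and 0.441, 0.375 and 0.393 FPKM in control replicates 1, 2 and 3. The groups do not overlap, and the lowest fatty acid library was above the highest control library. The means were 1.11 ± 0.112 FPKM with fatty acid and 0.403 ± 0.0341 FPKM in controls (SD, n = 3 each), a 2.76-fold ratio of means. On the log2(FPKM + 0.5) scale, which understates the change of a gene near 0.5 FPKM, the difference was 0.84 ± 0.15 (SE, limma adjusted p = 0.0137). The level rests on 104, 146 and 178 reads in fatty acid libraries and on 40, 24 and 47 in control libraries, and the depth-scaled read ratio was 2.7 with a 95% counting interval of 2.19 to 3.36. The CD36 call was lost without fatty acid replicate 1 (limma adjusted p = 0.0823), 2 (0.0588) or 3 (0.0559), where the log2 fold change was 0.78, 0.88 and 0.84.

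None of SLC27A1 to SLC27A4 passed the threshold. SLC27A2, the transport protein of liver and kidney that also acts as a very long-chain acyl-CoA synthetase (ENSG00000140284.10, chromosome 15, 50182196 to 50236395), had 10.2, 10.4 and 9.16 FPKM in fatty acid replicates 1, 2 and 3 and 11.9, 11.4 and 10.6 FPKM in control replicates 1, 2 and 3. All 3 fatty acid libraries lay below all 3 control libraries, with a log2 fold change of -0.18 ± 0.07 (SE, limma adjusted p = 0.142). SLC27A3, a family member with acyl-CoA synthetase activity (ENSG00000143554.13, chromosome 1, 153774354 to 153780157), had 8.44, 8.03 and 9.07 FPKM in fatty acid libraries and 11.3, 9.30 and 9.71 FPKM in control libraries. These values did not overlap either, and the log2 fold change was -0.23 ± 0.09 (SE, limma adjusted p = 0.123). The 95% intervals ran from 0.782-fold to 0.992-fold for SLC27A2 and from 0.739-fold to 0.98-fold for SLC27A3.

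SLC27A4, the main fatty acid transport protein of the intestine (ENSG00000167114.12, chromosome 9, 128340646 to 128361470), had 17.145, 16.477 and 17.931 FPKM in fatty acid replicates 1, 2 and 3, and 19.978, 15.388 and 13.056 FPKM in control replicates 1, 2 and 3. The control libraries spread on both sides of the fatty acid libraries, and the log2 fold change was 0.11 ± 0.14 (SE, limma adjusted p = 0.631). Its direction depends on 1 library: without control replicate 3 the log2 fold change was -0.03 (limma adjusted p = 0.888). SLC27A1, the form best known from muscle and adipose tissue (ENSG00000130304.16, chromosome 19, 17468769 to 17506168), had 1.80, 1.95 and 2.16 FPKM in fatty acid libraries and 2.69, 2.07 and 2.13 FPKM in control libraries. Fatty acid replicate 3 lay above 2 of the 3 controls, and the log2 fold change was -0.18 ± 0.12 (SE, limma adjusted p = 0.352). The summed level of the 4 SLC27 genes was 37.6, 36.8 and 38.3 FPKM in fatty acid libraries and 46.0, 38.1 and 35.5 FPKM in control libraries, so the sums overlap. SLC27A4 supplied 44.7% to 46.8% of this sum with fatty acid and 36.7% to 43.5% in controls.

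Parts of these transporter genes are shared with neighbours. Of the SLC27A2 exons, 19.9% (557 bases) lie opposite exons of ATP8B4 on the other strand, and ATP8B4 averaged 0.0223 FPKM with fatty acid and 0.065 FPKM in controls. Of the SLC27A3 exons, 8.32% (455 bases) overlap exons of INTS3 on the same strand, and INTS3 averaged 7.55 FPKM with fatty acid and 9.21 FPKM in controls. No source used here gives the strand option used in counting, and the part of these overlaps in the SLC27A2 and SLC27A3 values was not tested.

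**Figure D2:**
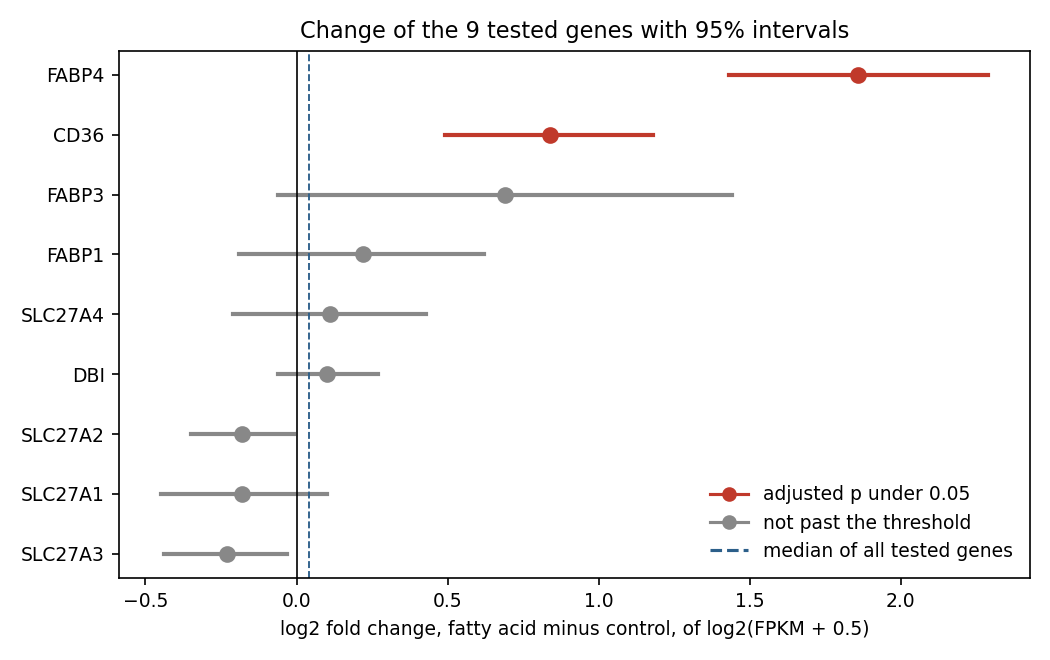
Log2 fold change of log2(FPKM + 0.5), fatty acid minus control (horizontal axis), for the 9 tested genes with 95% intervals, red where the limma adjusted p was under 0.05, and the median of all tested genes (0.04) as a dashed line. FABP4 at 1.86 and CD36 at 0.84 are the red points, and the interval of FABP1 (-0.19 to 0.62) spans 0.

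The adipocyte form FABP4 and the liver form FABP1 changed places in the FPKM values. FABP4 made up 65.7%, 66.4% and 61.8% of the summed FPKM of both genes in fatty acid replicates 1, 2 and 3, and 33.3%, 43.7% and 32.8% in control replicates 1, 2 and 3. The ratio of FABP4 to FABP1 was therefore above 1 in every fatty acid library (1.92, 1.97 and 1.61) and below 1 in every control library (0.499, 0.777 and 0.488). The log2 difference FABP4 minus FABP1, each on the log2(FPKM + 0.5) scale, averaged 0.86 ± 0.16 with fatty acid and -0.78 ± 0.37 in controls (SD, n = 3 each). The groups differed by 1.64 on the log2 scale, which is 3.12-fold, with p = 0.1 by an exact two-sided permutation test over libraries, the smallest the design allows. Leaving out 1 library at a time gave differences of 1.53 to 1.86.

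Which of the 2 genes stood higher with fatty acid depended on the gene length. The deposited FABP1 length, 2470 bases, is the union of all annotated exons and is 4.45 times the 555 bases of its principal mRNA, while the deposited FABP4 length, 1396 bases, is 1.484 times its 941 bases. Per kilobase of principal mRNA, a scale chosen after seeing the data, FABP4 was 39.0%, 39.7% and 35.0% of both genes in fatty acid libraries and 14.3%, 20.6% and 14.0% in control libraries. FABP1 was then higher in all 6 libraries. In reads, FABP4 had 52.0% (95% Clopper-Pearson interval 49.3% to 54.8%), 52.7% (50.8% to 54.7%) and 47.7% (45.8% to 49.6%) of both genes' reads in fatty acid libraries, and 22.0% (18.9% to 25.3%), 30.5% (26.8% to 34.4%) and 21.6% (19.5% to 23.8%) in control libraries. The shift towards FABP4 was present on all 3 scales, since a length cancels from a change within a gene.

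**Figure D3:**
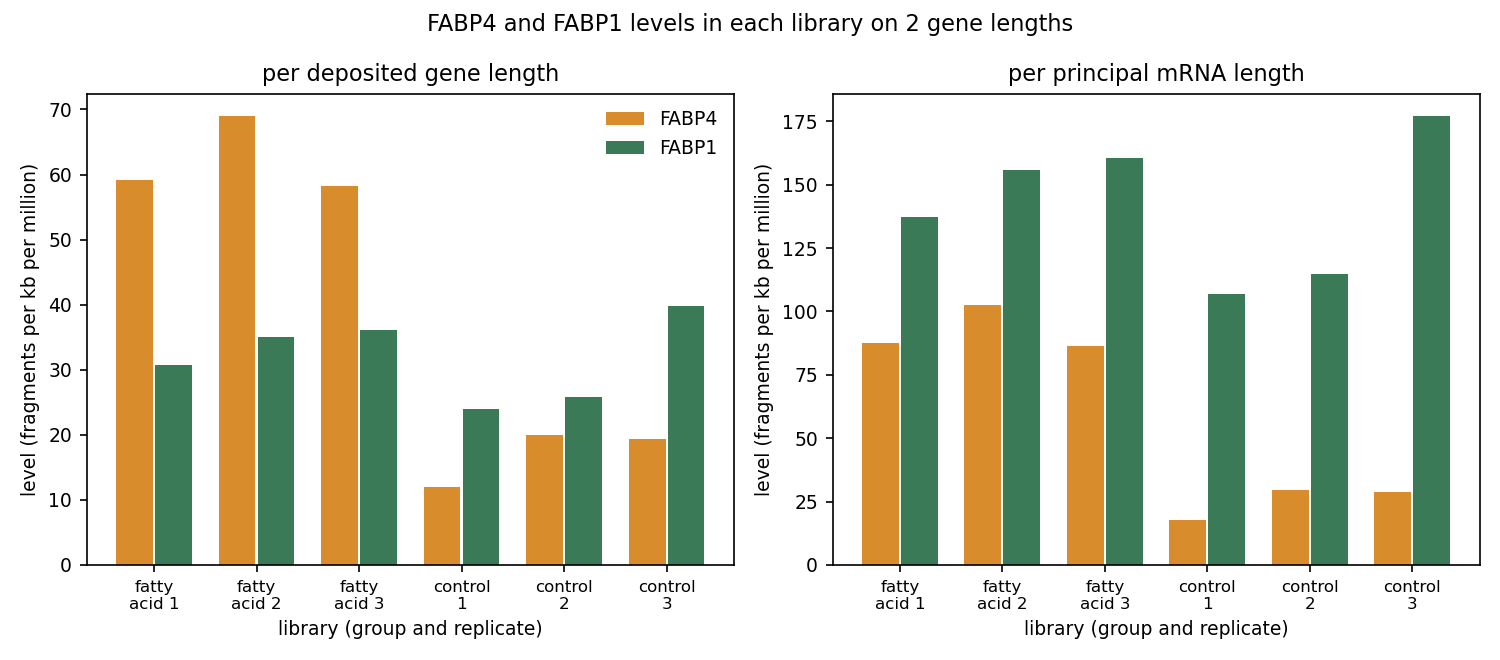
Level of FABP4 (orange) and FABP1 (green) in each library (horizontal axis), in FPKM units (vertical axis, from 0), by the deposited gene length on the left and by the principal mRNA length on the right. FABP4 is the taller bar in the 3 fatty acid libraries on the left only, while on the right FABP1 is taller in all 6.

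The order of the 10 levels changed little besides. In FPKM by the deposited lengths, the order in fatty acid libraries was DBI (106), FABP4 (62.1), FABP1 (33.9), SLC27A4 (17.2), SLC27A2 (9.91), SLC27A3 (8.51), SLC27A1 (1.97), CD36 (1.11), FABP3 (0.781) and FABP5 (0.0517 FPKM). Of these neighbours, CD36 and FABP3 overlapped in their values over libraries and the others did not. In control libraries the order was DBI (98.3), FABP1 (29.9), FABP4 (17.1), SLC27A4 (16.1), SLC27A2 (11.3), SLC27A3 (10.1), SLC27A1 (2.30), CD36 (0.403), FABP3 (0.297) and FABP5 (0.066 FPKM). Overlapping neighbours there were FABP4 with SLC27A4, SLC27A2 with SLC27A3, CD36 with FABP3, and FABP3 with FABP5. By principal mRNA length, CD36 averaged 5.37 with fatty acid and 1.95 in controls against 4.52 and 5.27 for SLC27A1, in fragments per kilobase of mRNA per 1e6. SLC27A3 (19.3 with fatty acid and 22.9 in controls) then stood above SLC27A4 (17.6 and 16.6) and SLC27A2 (11.6 and 13.2), overlapping SLC27A4 in the fatty acid libraries only. CD36 and SLC27A1 overlapped with fatty acid on that scale, and CD36 lay below SLC27A1 in every control library. The deposited length matched the exon union of GENCODE release 29 for 9 of the 10 genes. For CD36 it was 10115 bases against 10880, and 4.83 times its principal mRNA.

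Other members of the FABP and SLC27 families were low or did not pass the threshold. Of 6 other fatty acid binding proteins, FABP7 (brain), PMP2, FABP9 and FABP12 were listed at 0 in all libraries. FABP2, the intestinal form, had 0 reads with fatty acid and 1 read in controls. FABP6, the ileal bile acid binding form, was tested and did not pass (log2 fold change 0.19 ± 0.31 SE, limma adjusted p = 0.711). SLC27A5, the liver's bile acid and fatty acid CoA ligase, was below the testing minimum, at 0.060 to 0.219 FPKM in fatty acid libraries and 0.236 to 0.548 FPKM in control libraries, from 47 and 91 reads. SLC27A6 averaged 4.95 ± 0.763 FPKM with fatty acid and 4.42 ± 0.307 FPKM in controls (SD, n = 3 each) and did not pass (limma adjusted p = 0.426).

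Of 6 tested genes for other routes of uptake at the membrane, 1 was lower and 5 did not pass, with a median log2 fold change of -0.04. CAV1, the coat protein of caveolae, averaged 109 ± 2.62 FPKM with fatty acid and 125 ± 5.79 FPKM in controls (SD, n = 3 each; log2 fold change -0.19, limma adjusted p = 0.0495). That call was lost in 10 of 17 settings, among them each one that left out a library. GOT2, whose product was also described as a fatty acid binding protein of the plasma membrane, averaged 28.1 ± 1.74 FPKM with fatty acid and 24.5 ± 1.06 FPKM in controls (limma adjusted p = 0.0869).

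Of 7 tested genes for other acyl-CoA binding proteins, 3 were lower, 1 was higher and 3 did not pass, with a median log2 fold change of -0.21 where that of all tested genes was 0.04. SCP2, the sterol carrier protein that also binds acyl-CoA in peroxisomes, fell to 16.4 ± 0.274 FPKM with fatty acid, against 23.9 ± 1.25 FPKM in controls (log2 fold change -0.53 ± 0.06 SE, limma adjusted p = 0.00194). The SCP2 call held in all 17 alternative settings. ACBD4, a peroxisomal acyl-CoA binding protein, fell to 3.49 ± 0.574 FPKM, against 5.85 ± 1.24 FPKM in controls (limma adjusted p = 0.0401), and ECI2, an enoyl-CoA isomerase with an acyl-CoA binding domain, to 17.4 ± 0.282 FPKM, against 20.3 ± 0.915 FPKM (limma adjusted p = 0.0458). ACBD3, a Golgi protein of the family, rose to 21.2 ± 0.343 FPKM, against 16.2 ± 1.31 FPKM in controls (limma adjusted p = 0.014). Leaving out any fatty acid library ended the calls of ACBD4, ECI2 and ACBD3, leaving out control replicate 1 or 3 ended those of ACBD4 and ECI2, and leaving out control replicate 2 ended that of ECI2. ACBD4 was called in 8 and ECI2 in 7 of 17 settings, as both calls were also lost with no expression filter, with TPM, without the trend and with the replicate block. The limma adjusted p of ACBD4, ECI2 and ACBD3 reached 0.141, 0.535 and 0.0735 at the highest over the 17 settings.

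Retinoid carriers share the barrel fold of the fatty acid binding proteins, and 2 of the 6 were tested. RBP5, a cellular retinol binding protein of liver and kidney, fell to 0.713 ± 0.072 FPKM with fatty acid, against 1.95 ± 0.216 FPKM in controls (SD, n = 3 each; log2 fold change -1.01 ± 0.12 SE, limma adjusted p = 0.00361), and passed in all 16 settings that tested it. CRABP2, a carrier of retinoic acid, rose to 1.87 ± 0.398 FPKM, against 0.901 ± 0.275 FPKM in controls (limma adjusted p = 0.0371). CRABP2 was called in 7 of 16 settings: the call was lost without any one fatty acid library, without control replicate 2 or 3, with no expression filter, without the trend, with voom and with the replicate block.

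FABP4 and CD36 were set beside other genes known as lipid droplet genes or PPAR targets. Of 8 tested, 5 rose and 3 did not pass, with a median log2 fold change of 0.62. ANGPTL4, an inhibitor of lipoprotein lipase, rose to 25.0 ± 1.44 FPKM with fatty acid, against 6.19 ± 0.784 FPKM in controls (SD, n = 3 each), a log2 fold change of 1.94. PDK4, a kinase that restrains glucose oxidation, rose by 1.57, PLIN2, the coat protein of lipid droplets, by 1.43, ACSL1, an acyl-CoA synthetase, by 0.82, and CPT1A, which passes acyl groups into mitochondria, by 0.41 on the log2 scale, with limma adjusted p from 8.74e-05 to 0.00901. The CPT1A call was lost without fatty acid replicate 1 or 2 (highest limma adjusted p 0.0555). ACADM, a medium-chain acyl-CoA dehydrogenase, had a log2 fold change of 0.02 (limma adjusted p = 0.87). Of 7 tested genes, HNF4A and 6 PPAR and partner genes, HNF4A was lower and the 6 did not pass. PPARG averaged 3.82 ± 0.314 FPKM with fatty acid and 3.68 ± 0.386 FPKM in controls (limma adjusted p = 0.764), and PPARA 6.28 ± 0.445 FPKM and 7.17 ± 0.164 FPKM (limma adjusted p = 0.138). HNF4A, a receptor that sustains hepatocyte gene expression, fell to 11.7 ± 0.715 FPKM with fatty acid, against 16.7 ± 1.36 FPKM in controls (log2 fold change -0.49, limma adjusted p = 0.00923), a call lost without fatty acid replicate 1 or 2. These lists were drawn up with earlier results of the same libraries known, so their direction is not independent evidence.

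**Figure D4:**
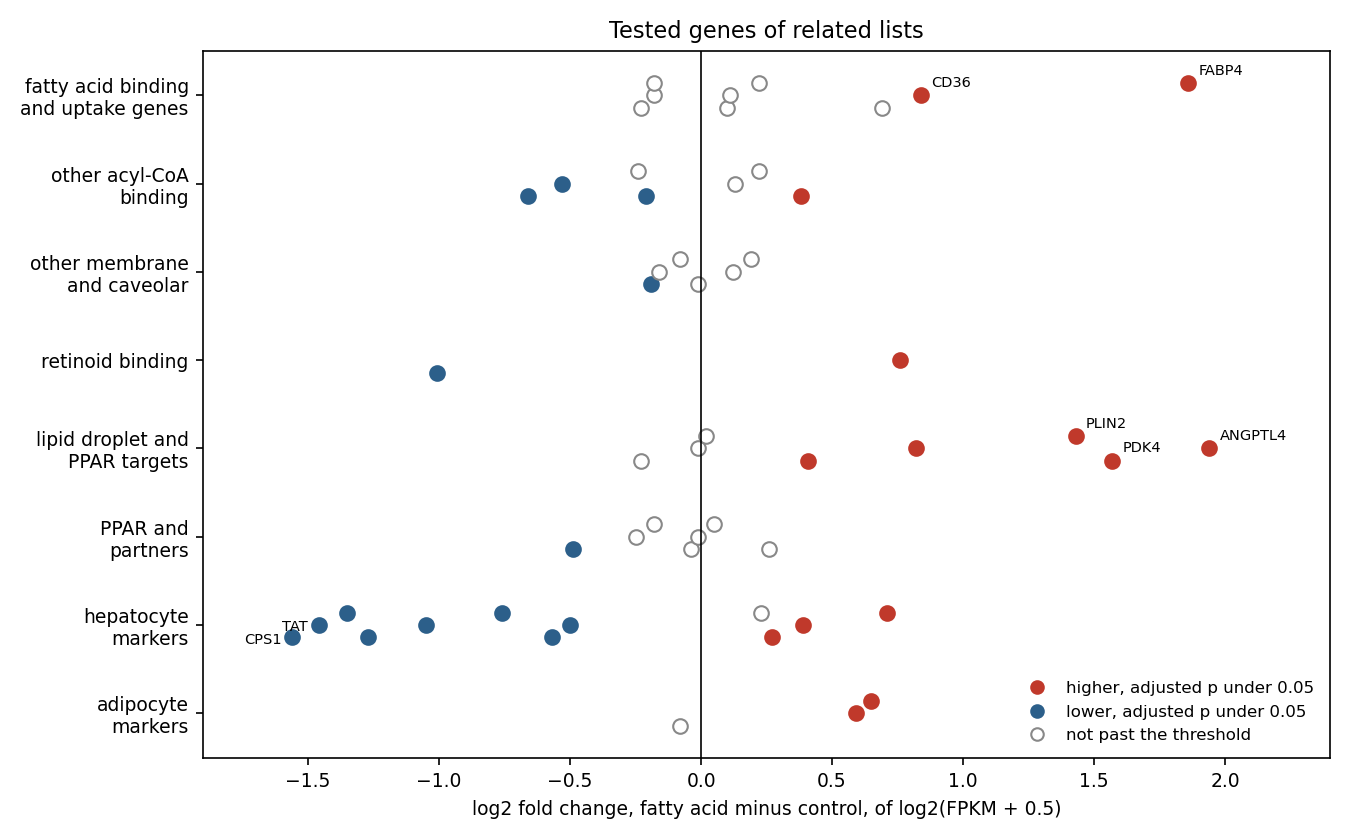
Log2 fold change, fatty acid minus control (horizontal axis), of every tested gene in the 10-gene set and in 7 related lists (rows), red for higher and blue for lower at a limma adjusted p under 0.05 and open otherwise; points are offset vertically only to separate them. Among lipid droplet and PPAR targets 5 of 8 are red, and among hepatocyte markers 8 of 12 are blue.

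FABP4 and CD36 are also known from adipocytes, macrophages and capillary endothelium, and markers of those cells were measured in the same libraries. The summed FPKM of 6 adipocyte markers ran from 83.2 to 86.0 with fatty acid and from 70.5 to 86.2 in controls, with LEP at 0 in all libraries and ADIPOQ at 0.112 ± 0.0482 FPKM with fatty acid and 0.087 ± 0.0442 FPKM in controls. Of the 3 adipocyte markers tested, 2 rose, PLIN1 (log2 fold change 0.65, limma adjusted p = 0.00785) and PLIN4 (0.59, 0.00323), both coat proteins of lipid droplets, and CIDEC did not pass. CIDEC was the largest part of the sum, at 53.0 ± 1.11 FPKM with fatty acid and 56.5 ± 7.4 FPKM in controls. LIPE, the hormone-sensitive lipase, had 56 reads with fatty acid and 4 in controls and was below the testing minimum. The summed FPKM of 6 macrophage markers ran from 13.1 to 14.2 with fatty acid and from 9.29 to 14.3 in controls, of which CD14, also made by hepatocytes, was nearly all. PTPRC, carried by all leukocytes, had 5 reads with fatty acid and 0 in controls, and CD163 had 0 and 1. MARCO, a macrophage scavenger receptor below the testing minimum, had 0.345 to 0.435 FPKM with fatty acid (31 reads) and 0 to 0.322 FPKM in controls (9 reads), without overlap. The summed FPKM of 6 endothelial markers ran from 25.4 to 27.3 with fatty acid and from 38.0 to 44.9 in controls, nearly all of it KDR, while CDH5 and CLEC4M were at 0. KDR, a VEGF receptor, fell to 25.6 ± 0.972 FPKM with fatty acid, against 40.7 ± 3.48 FPKM in controls (SD, n = 3 each; log2 fold change -0.66, limma adjusted p = 0.00195). PECAM1, an adhesion protein of endothelium, was below the testing minimum at 0.538 to 0.542 FPKM with fatty acid (162 reads) and 0.288 to 0.387 FPKM in controls (70 reads), with every fatty acid library above every control library. TEK, an angiopoietin receptor also below the minimum, had 0.025 to 0.13 FPKM with fatty acid (19 reads) and 0.164 to 0.279 FPKM in controls (29 reads). The muscle markers, set beside FABP3, summed to 0.703 to 1.07 FPKM with fatty acid and 0.812 to 0.866 FPKM in controls, with MYH7 and ACTC1 at 0. Of the 4 mesenchymal markers tested and the 4 biliary markers tested, none passed, with sums of 37.8 to 42.8 and 360.4 to 375 FPKM with fatty acid and 41.5 to 43.5 and 361 to 435 FPKM in controls. COL1A1 averaged 0.741 FPKM with fatty acid and 1.41 FPKM in controls, and COL3A1 9.04 and 11.2 FPKM. KRT7 averaged 1.04 FPKM with fatty acid and 0.653 FPKM in controls. These 3 genes did not overlap between the groups, with limma adjusted p of 0.0655, 0.06 and 0.0852. They passed in 1, 3 and 2 alternative settings. The other tested markers of both lists overlapped.

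FABP1 is a hepatocyte gene, and of 12 hepatocyte markers 8 were lower, 3 were higher and 1 did not pass. Their median log2 fold change was -0.66, and their summed FPKM ran from 14142 to 14639.7 with fatty acid and from 18318 to 18851 in controls. CPS1, a urea cycle enzyme, fell to 13.3 ± 0.28 FPKM with fatty acid, against 40.1 ± 0.428 FPKM in controls (limma adjusted p = 3.06e-05), and FGB, a fibrinogen chain, rose to 1937 ± 53.0 FPKM, against 1185 ± 114 FPKM (limma adjusted p = 0.00194). The 8 that fell had log2 fold changes of -1.56 to -0.50, and the 3 that rose, SERPINA1, HP and FGB, had 0.27, 0.39 and 0.71. APOB, which did not pass, had 0.23 (limma adjusted p = 0.432). FABP1 had 0.22 with its interval of -0.19 to 0.62, and the difference between FABP1 and these markers was not tested. Of the marker calls, those of APOA1 and SERPINA1 were lost without any one fatty acid library or without control replicate 3, that of SERPINA1 also without control replicate 2, and that of HP without fatty acid replicate 1 or 2. The calls of ALB, SERPINA1 and HP were also lost with no expression filter and with quantile normalization, and those of APOA1 and SERPINA1 without the trend, that of APOA1 further with no filter and with TPM. In bulk samples, fewer cells of a type and less RNA per cell cannot be told apart. The part of these marker levels and of the mitochondrial share in the FABP4, CD36 and FABP1 values was not tested.

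The genes closest in profile to FABP1 and to FABP4 were found among 10997 protein-coding genes averaging 1 FPKM or more, by the root mean square difference of centred log2(FPKM + 0.5) values over the 6 libraries. Closest to FABP4 were PDK4 (0.224), PTX3, a secreted pentraxin (0.287), APOA4, an apolipoprotein (0.291), the chemokine CCL2 (0.298) and PLIN2 (0.319). All 5 were higher with fatty acid, with log2 fold changes of 1.41 to 1.79. Closest to FABP1 were the complement component C9 (0.0532), the tubulin gene TUBE1 (0.0782), the SUMO protease SENP7 (0.0997), LRRC40 (0.101) and GKAP1 (0.103). None of those 5 passed the threshold, with log2 fold changes of 0.11 to 0.29. For both sets the fold changes follow from the selection, which used the same 6 libraries, and are not separate evidence. C9 averaged 8.67 FPKM with fatty acid and 7.14 FPKM in controls (limma adjusted p = 0.258).

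The processing settings left FABP4 called throughout. Its log2 fold change lay between 1.63 and 2.02 over 17 alternatives, with a limma adjusted p of at most 0.00962. CD36 was called in 13 of the 16 settings that tested it, with log2 fold changes of 0.59 to 1.42, the largest from the voom fit on recovered reads, which adds no pseudocount of 0.5 FPKM. FABP1 lay between 0.08 and 0.44. The log2 fold changes of SLC27A1 (-0.23 to -0.07), SLC27A2 (-0.24 to -0.05) and SLC27A3 (-0.29 to -0.11) stayed below 0 in all 17 settings without passing the threshold in any, with a lowest limma adjusted p of 0.258, 0.0578 and 0.0564.

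**Figure D5:**
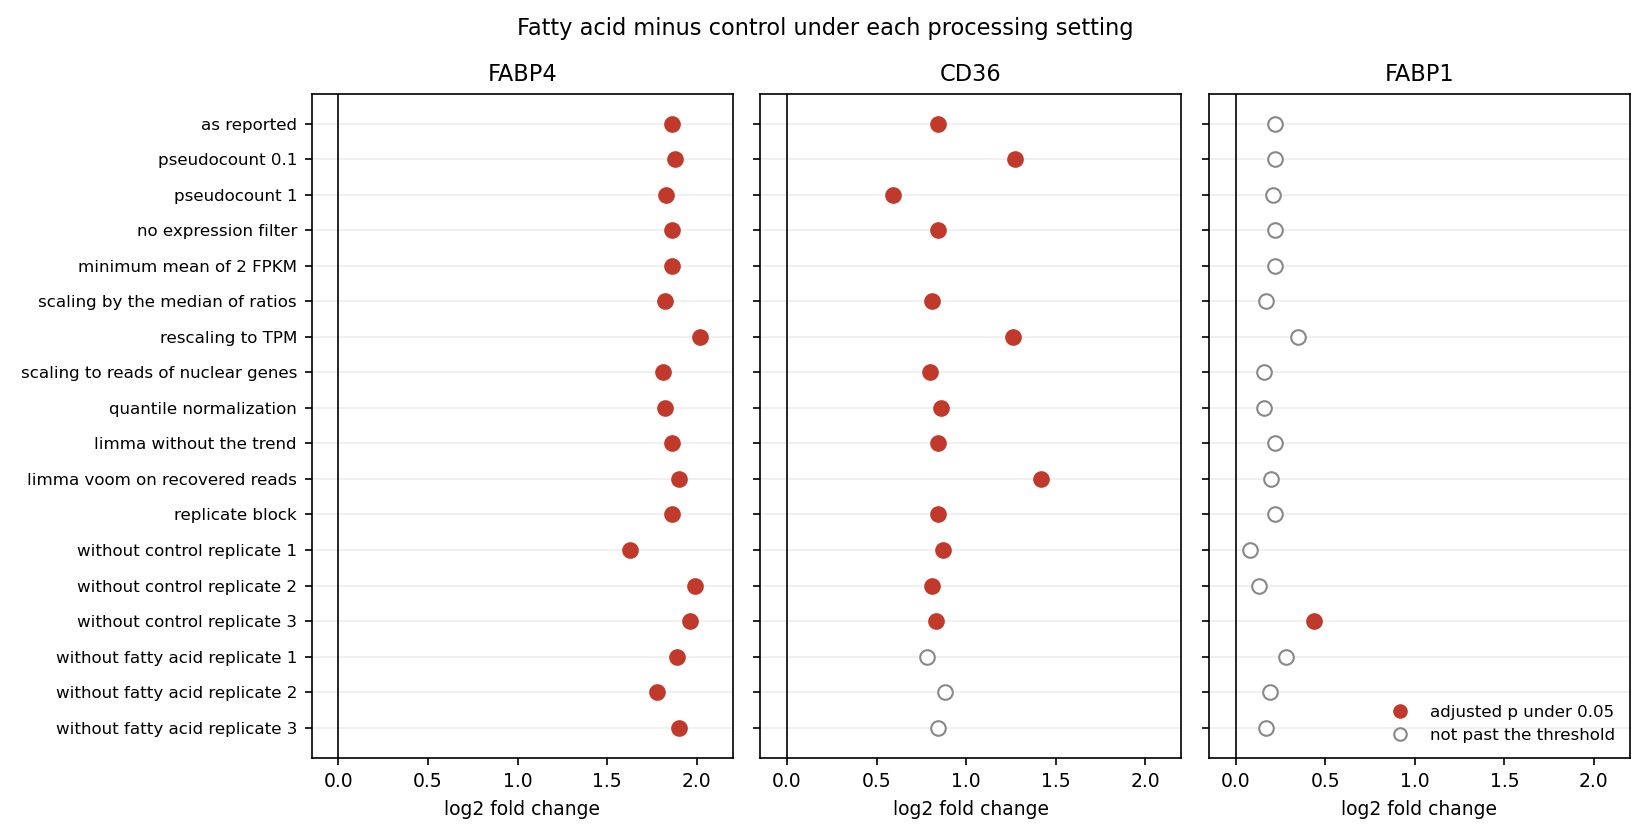
Log2 fold change, fatty acid minus control (horizontal axes), of FABP4, CD36 and FABP1 as reported and under each alternative setting (rows), filled where the limma adjusted p was under 0.05. FABP4 is filled in every row, CD36 is open in the 3 rows that leave out a fatty acid library and has no point at a minimum of 2 FPKM, and FABP1 is filled only without control replicate 3.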

How the data were processed

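Total RNA of 6 HepaRG samples was made into stranded mRNA libraries, per the labels' protocols. Reads were handled with STAR 2.5.2, Subread 1.5.1 and featureCounts on GRCh38, per the submitters' processing notes. Strand setting and handling of reads that fit several genes: not given in the sources used here. The authors deposited 1 table of FPKM for 58037 genes, with each gene's length and position per the file headers. FPKM times length came out as whole reads for 100% of the values that could be checked, which gave the depth of 6.33 to 15.94 M reads. The tolerance was 0.02 reads plus the rounding error of the printed value, which grows with gene length.

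Groups and replicate numbers came from the sample titles, and no column was left unused (0). Genes averaging 0.5 FPKM or more entered limma 3.58.1 (R 4.3.3, intensity trend) on log2(FPKM + 0.5), all 6 libraries, no covariate, Benjamini-Hochberg adjustment over 14661 genes, threshold 0.05. The script was tested on simulated data. Single values were tested by exact permutation over 20 splits. Intervals of read ratios and shares are exact, at 95%, and cover counting error only. Annotation was GENCODE release 29, with similarity by BLAST 2.17.0; promoters were RefSeq's. Python 3.11.15 and matplotlib 3.10.9 were used.

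The 10 genes and all lists were chosen with earlier results of these data known. Genes named were all 10, the called genes of the related lists with those below the minimum as names, and the 5 closest profiles to FABP1 and to FABP4. Other related genes with values were chosen after those were seen. List counts also cover a few genes that are not reported here. PTRF and SDPR stand in the table under these older symbols. Alternatives were other pseudocounts, minimums and scalings, limma without the trend, voom on recovered reads, the replicate number as a block and each library left out. The principal mRNA length was added after seeing the data.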

Additional observations from a re-analysis of the deposited data

How the results depend on the processing

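The count of genes past the threshold, 1891 as reported, was 977 with no expression filter, 1101 for limma without the trend and 2999 for voom on recovered reads, and ran from 463 to 1629 with 1 library left out. Leaving out fatty acid replicate 1, 2 or 3 gave 463, 484 and 913, and leaving out control replicate 3 gave 1041. Of the 10 genes, 2 were called as reported, 1 at a minimum of 2 FPKM, where CD36 could not be tested, and 1 to 3 with 1 library left out, the third being FABP1. SLC27A4 ran from -0.03 (without control replicate 3) to 0.27 (without control replicate 1) on the log2 scale. The log2 ratio of the FABP4 level to the FABP1 level, 0.87 with fatty acid and -0.80 in controls, was -0.71 and -2.39 by principal mRNA length, by construction of that length.

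The split of higher and lower calls, 1205 and 686, became 2231 and 377 with TPM (18218 genes tested), 778 and 818 with the median of ratios, 705 and 828 with reads of nuclear genes, and 758 and 772 with quantile normalization. TPM moved the median over all genes to 0.164 on the log2 scale, beside which FABP4 was at 2.02.

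Same-numbered libraries correlated at 0.01218, 0.08359 and 0.02241 after removal of group means, and differently numbered ones at -0.09398 to 0.07311. These values show no pairing by number, but 3 libraries in each group are too few to exclude it. With the replicate block 1474 genes passed and FABP4 and CD36 remained the 2 called of the 10. The FABP4 minus FABP1 difference was 1.64 with pairs (exact p = 0.25, the smallest possible). FABP5 without a filter had -0.03 (limma adjusted p = 0.884). Depth limits FABP3, FABP5 and CD36 most.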
